A study of Mus musculus with 3 samples.

Results

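Retained-intron transcripts are RNAs of a gene in which intron sequence that other transcripts of the same gene splice out is kept in the RNA. Here they were the transcripts of the GENCODE class retained_intron whose mean TPM over the 3 libraries was at least 0.5 in both deposited transcript tables. TPM is a transcript abundance scaled for length and to a fixed sum in each library. The rule selected on these measured mean TPM values, so the abundance of the members is a description and supports nothing. It found 856 transcripts in 725 host genes, among 21848 transcripts of the class in 9421 genes and 141767 transcripts in all. Of the members, 851 belonged to protein-coding genes. The first table alone gave 1632 such transcripts and the second table alone 1008. Just inside the threshold lay Ncor1-221, Phykpl-208 and Plaur-205, with mean TPM of 0.5, 0.5 and 0.503 in the first table and 1.55, 0.769 and 1.31 in the second. Just outside lay Eef2k-206, Zeb2-209 and Anxa1-202, with 2.07, 1.28 and 0.697 TPM in the first table and 0.498, 0.497 and 0.495 in the second.

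The RNA came from the cytosolic fraction of bone marrow-derived macrophages, phagocytes grown from marrow progenitors, of C57BL/6J mice. All 3 libraries, biological replicates 1, 2 and 3, had the same treatment, 100 ng/ml Lipid A for 40 minutes, and form 1 group. Lipid A anchors lipopolysaccharide in bacterial membranes and is the portion bound by Toll-like receptor 4. Ribosomal RNA was depleted before sequencing, and each library started from 1 µg of RNA. The replicates share 1 donor record, so the spread between them may be partly technical, and the labels give no age or sex. There is no second group, and no value below is an effect of Lipid A or of fractionation.

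An intron is recognised by the spliceosome at its 5′ end, the donor, and at its 3′ end, the acceptor, which in most introns begin with GT and end with AG. A transcript that keeps an intron is often held in the nucleus, and once in the cytosol a stop codon inside the intron can send it to nonsense-mediated decay. In macrophages, intron removal is one of the steps that set how fast newly made inflammatory transcripts become mature. The annotated class is wider than fully retained introns, since it also holds partial transcripts that begin or end inside an intron.

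Whole retained introns of the most abundant members and of the genes with the largest shares were short enough to show in full. Each is given 5′ to 3′ on the gene's strand, build mm10, in lower case with the donor GT, the acceptor AG and the first stop codon in the reading frame of the coding transcript in capitals. All 6 lie between coding exons.
Cd83-202: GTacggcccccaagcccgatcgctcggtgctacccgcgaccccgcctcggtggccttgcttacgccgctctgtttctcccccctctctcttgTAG
Mrps26-201: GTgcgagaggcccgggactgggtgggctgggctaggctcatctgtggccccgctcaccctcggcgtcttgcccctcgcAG
Prelid1-202: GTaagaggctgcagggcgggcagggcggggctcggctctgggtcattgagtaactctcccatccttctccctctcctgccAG
Rps16-202: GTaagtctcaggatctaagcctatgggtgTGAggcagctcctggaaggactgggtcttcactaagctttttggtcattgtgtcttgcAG
Rps20-201: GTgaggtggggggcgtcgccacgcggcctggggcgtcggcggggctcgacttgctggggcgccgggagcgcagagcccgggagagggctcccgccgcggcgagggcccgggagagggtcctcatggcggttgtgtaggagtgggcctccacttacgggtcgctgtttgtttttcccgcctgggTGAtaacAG
Taf10-201: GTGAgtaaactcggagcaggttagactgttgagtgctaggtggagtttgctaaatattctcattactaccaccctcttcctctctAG
The introns are intron 1 of Cd83 (chr13:43785251-43785345, plus strand, 95 bases), intron 2 of Mrps26 (chr2:130564228-130564307, plus strand, 80 bases) and intron 3 of Prelid1 (chr13:55324445-55324526, plus strand, 82 bases). The others are intron 3 of Rps16 (chr7:28352274-28352362, plus strand, 89 bases), intron 1 of Rps20 (chr4:3835292-3835483, minus strand, 192 bases) and intron 3 of Taf10 (chr7:105743341-105743427, minus strand, 87 bases). A stop codon stood at base 2 of the Taf10 intron, where it overlaps the donor, at base 30 in Rps16, at base 184 in Rps20 and at base 93 in Cd83, where it overlaps the acceptor. The Mrps26 and Prelid1 introns held no stop codon in frame, and neither length is a multiple of 3. A further intron of the Cep250 members was left out because the coding transcript that splices it was at 0 TPM.

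Most members hold no whole intron and instead cross a single splice site, as the next sequences show. They run 5′ to 3′ with up to 15 exon bases in capitals and up to 25 intron bases in lower case. The first 4 are mostly exonic transcripts that begin a short way upstream of an acceptor.
Itm2b-202: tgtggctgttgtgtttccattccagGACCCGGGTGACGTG
Ccl6-202: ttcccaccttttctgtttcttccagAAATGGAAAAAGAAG
H2-K1-215: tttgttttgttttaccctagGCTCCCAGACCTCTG
Vim-203: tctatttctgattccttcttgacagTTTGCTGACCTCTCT
The next 4 are mostly intronic transcripts that read through a donor and end inside the intron.
Gpnmb-205: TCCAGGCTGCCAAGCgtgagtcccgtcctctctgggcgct
Ifrd1-208: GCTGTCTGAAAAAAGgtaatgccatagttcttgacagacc
Vim-205: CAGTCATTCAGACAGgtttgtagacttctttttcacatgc
Msr1-204: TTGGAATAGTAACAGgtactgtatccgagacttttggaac
Itm2b-202 takes in 78 bases of intron 1, Ccl6-202 71 bases of intron 1, H2-K1-215 20 bases of intron 6 and Vim-203 52 bases of intron 4. Gpnmb-205 runs 1585 bases into intron 1, Ifrd1-208 828 bases into intron 3, Vim-205 1847 bases into intron 2 and Msr1-204 957 bases into intron 3. Over all members, 430 of 431 such acceptors with at least 2 intron bases ended in AG and 286 of 289 such donors began with GT.

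The 3 libraries held 371263, 434840 and 563804 expected counts in members, of 37855530, 37131718 and 58879279 in all transcripts. Protein-coding genes took 33.2%, 37.0% and 24.1% of the TPM of the first table, so TPM is compared here as a share of a gene or of coding genes. All 20 macrophage markers were at 1 TPM or more, with a summed level of 25881, 20974 and 22248 CPM, a count relative to its library total. None of the 8 lymphocyte, 6 dendritic cell and 6 stromal markers reached 1 TPM, and 3 of 8 neutrophil markers did, with a summed 22.6, 19.3 and 25.7 CPM. In bulk RNA, fewer cells of a type and less RNA per cell cannot be told apart. Nuclear long noncoding RNAs differed between the libraries, with a summed level over 10 genes of 2436, 1317 and 8295 CPM in replicates 1, 2 and 3. Malat1 alone made up most of each sum. They were not the only genes to differ, since 211 of 12244 genes were called in the test of spread described below.

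The members held little intron sequence compared with the rest of their class. The median member was 744.5 bases long, with 17.5% of its bases (131 bases) outside every exon of the gene's coding transcripts. The 20992 transcripts of the class below the threshold had a median length of 890 bases, with 44.01% (379 bases) outside. Members started inside an intron in 50.8% of cases and ended inside one in 34.0%. Below the threshold these shares were 40.1% and 53.3%. A whole intron was present in 26.2% of members and in 32.4% of the others, and 11 members had no base outside coding exons. The 2 sets differ by the threshold itself, and no test was made of these differences. Members are not independent of each other, since those of 1 gene share exons.

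**Figure D1:**
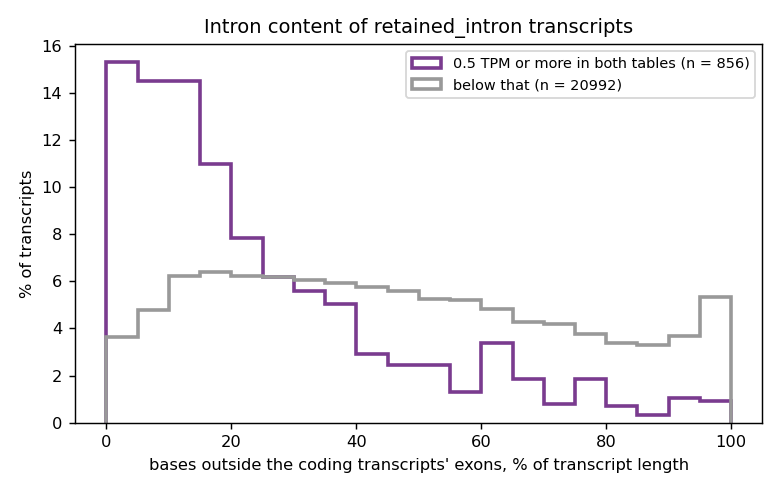
Share of bases outside the exons of the same gene's coding transcripts (x axis, percent of transcript length) against the percent of transcripts in each 5-point bin (y axis), for the 856 members and the 20992 other transcripts of the class. The members pile up at low intron content, with a median of 17.5% against 44.01%.

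Introns that members kept whole were short. The 342 different introns had a median length of 228.5 bases, and 23.1% were at most 100 bases long. The 9999 introns kept whole in the rest of the class had a median of 289 bases, with 17.5% at most 100 bases. Among introns of the host genes' coding transcripts, the 274 that a member keeps had a median of 201 bases, and the other 10172 a median of 1117 bases. An intron counted as kept only if it lay wholly inside an exon of a member. The median member was 744.5 bases long, so most members could not hold a long intron, and this difference is partly set by the definition. Base composition and splice sites were close in both sets of kept introns. The median GC content was 50.9% in members and 51.0% in the rest, GT and AG ends were present in 96.8% and 97.6%, and the donor sequence GTAAG, read on the gene's strand only, began 19.6% and 20.8%. Of 229 kept introns between coding exons, 195 (85.2%) carried a stop codon in frame, beside 88.7% in the rest. A further 11 were a multiple of 3 with no stop and 23 shifted the frame with no stop. Small RNA genes lay in 8 of the 342 introns, 5 of them in Taf1d-203, whose gene hosts small nucleolar RNAs.

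The 3′ ends also differed by kind. The polyadenylation signal AATAAA, searched on the transcript strand in the last 50 bases, was found in 46 of 291 members that end in an intron (15.8%) and in 208 of the 565 others (36.8%). Coding transcripts at the same TPM threshold had it in 57.3% of 13100. A match is a description of the letters, not of a used site.

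Retained-intron transcripts made up a median of 16.03% of the TPM of their host gene in the first table, with medians of 13.8%, 18.3% and 14.4% in replicates 1, 2 and 3. The second table gave a median of 17.4%. At least 50% of the gene's TPM was in members in 69 host genes of the first table and 71 of the second, of which 59 were shared. Across the 725 host genes, the shares of the tables had Pearson's r = 0.905, a description across genes that share the same libraries and reads. In expected counts, which are not divided by length, the median share was only 4.92%. Members outranked every other transcript of the gene in 119 host genes of the first table and 128 of the second, 90 of them shared.

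The 15 genes with the largest shares, among 683 with a coding transcript and at least 5 TPM, came from several processes. Of the 15, 5 belong to the cytosolic or mitochondrial ribosome or its export. For Rps20, a protein of the small ribosomal subunit, the share was 93.2%, 93.4% and 90.3% in replicates 1, 2 and 3, or 92.3% ± 1.74 (SD, n = 3). For Rps16, of the same subunit, it was 88.5%, 91.8% and 88.6%. The mitochondrial ribosomal protein genes Mrpl57 and Mrps26 gave 94.0% ± 1.83 and 90.9% ± 3.40 (SD, n = 3), and Nmd3, the export adaptor of the large ribosomal subunit, gave 88.7% ± 4.36. In each of these 5 genes the lowest library of the first table still had over 80% of its TPM in members. In the second table Nmd3 had 85.7%, 90.1% and 74.7%.

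The highest share was that of Taf10, a subunit of the general transcription factor TFIID, at 95.4%, 97.3% and 95.4%. Rfc2, a subunit of the clamp loader of DNA replication, had 82.7% ± 0.755 (SD, n = 3). The fatty acid transport protein gene Slc27a1 had 90.6%, 98.2% and 94.6% in the first table and a mean of 68.9% in the second, the largest gap between the tables among the 15. Usp15, a deubiquitinase, had 84.1% ± 3.87, and Cep250, a centrosomal protein, 83.3% ± 0.103 (SD, n = 3). Prelid1, a mitochondrial lipid transfer protein, had 81.8% ± 0.146, Chic2 90.2% ± 1.98 and Tmem132a 88.1% ± 2.13 (SD, n = 3). The widest spreads were those of Exoc3l4, at 94.9%, 79.3% and 94.4%, and Gm21188, at 71.7%, 91.0% and 81.7%.

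**Figure D2:**
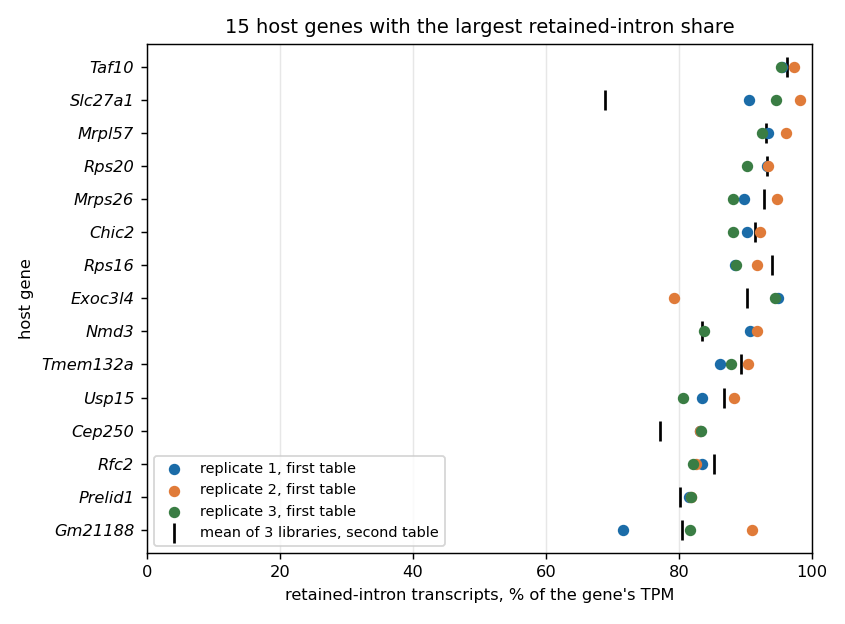
Share of each gene's TPM in retained-intron transcripts (x axis, percent) for the 15 host genes with the largest shares (y axis), with a dot for each library in the first table and a bar for the mean of the second. All dots lie above 70%, and Slc27a1 is the gene whose second-table mean, 68.9%, lies farthest from its dots.

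The annotated alternatives of these genes differed in number and length. In 8 of these 15 genes the annotation has 1 transcript of the protein_coding class, and in 13 the most abundant coding transcript is longer than the longest member. The median ratio of the lengths was 4.05, beside 2.71 over all host genes. Rps20-203, the coding transcript of Rps20, has 3706 bases and the member Rps20-201 has 582. For Taf10 the lengths were 4281 bases for the coding transcript and 678 for the longer member, and for Mrpl57 2877 and 519. In Rps20 the whole retained intron printed above is 192 of those 582 bases, so most of the member is exon. How far the lengths set the shares was not tested. Ribosomal protein genes have many near-identical copies, so their reads can be divided in more than 1 way.

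The most abundant members, ranked by the lower of their 2 mean TPM values, were mostly exonic in 8 of 10 cases, with under 20% of their bases outside coding exons. The exceptions were Rps20-201 with 33.0% and Rgs1-203 with 26.8%. Ctsb-202, from the gene of the lysosomal protease cathepsin B, had 1034, 626 and 41.7 TPM in the first table and 900, 590 and 229 in the second. Replicate 3 was lowest in both tables, but by far more in the first. Itm2b-202, from the gene of a membrane protein, had 417, 203 and 161 TPM in the first table and 317, 219 and 102 in the second.

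The 10 also held transcripts of immune genes. H2-K1-215, from a class I histocompatibility gene with near-identical relatives, had 386, 521 and 301 TPM in the first table. Cd83-202 keeps the 95-base intron printed above inside a transcript of 2158 bases, and had 274, 200 and 154 TPM, which was 72.0% of its gene's TPM on average. Ccl6-202, from a chemokine gene, had 55.4, 82.1 and 28.5 TPM. Rgs1-203, from a regulator of G protein signalling, had 129, 144 and 71.0 TPM. In the first table replicate 3 had the lowest TPM of these 4 transcripts as deposited, without scaling to coding genes.

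Rps16-203 had 262, 379 and 140 TPM, Rps20-201 280, 226 and 135 TPM, and Rpl13a-213, also from a ribosomal protein gene, 154, 307 and 91.3 TPM in the first table. Vim-203, from the gene of the intermediate filament vimentin, had 146, 292 and 212 TPM. For 9 of these 10 transcripts replicate 3 had the lowest TPM as deposited in the first table, and Vim-203 was the exception. Coding genes also took the smallest share of TPM in replicate 3, 24.1% beside 33.2% and 37.0% in replicates 1 and 2. The count of 9 is not scaled for this, and the lowest library of a transcript can change with such scaling. Of the 10, Ctsb-202 alone was called in the test of spread described below.

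**Figure D3:**
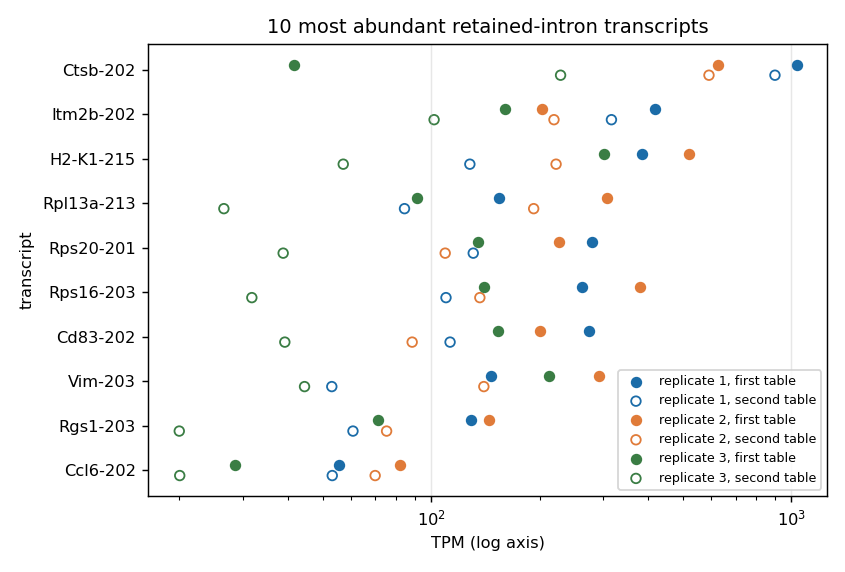
TPM on a log axis (x axis) of the 10 most abundant members (y axis), with filled dots for the first table and open dots for the second, coloured by replicate. Replicate 3 of Ctsb-202 stands apart in the first table at 41.7 TPM, against 1034 and 626 in the other libraries.

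Most host genes had a single member, 623 of 725. The most members were found in Lilr4b, with 7, Lilrb4a, with 5, and H2-K1 and Pirb, with 4 each. Lilr4b, Lilrb4a and Pirb encode receptors of myeloid cells with immunoglobulin domains, and their genes have close relatives, so the division of reads among them is uncertain. The members took 74.3%, 70.4% and 71.4% of the TPM of Pirb. In Lilrb4a they took 34.2%, 16.4% and 51.6%, lowest in replicate 2 and highest in replicate 3, and in Lilr4b 23.3%, 20.2% and 30.7%, in the same order. Nmd3 is one of the host genes with 3 members.

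Among all 10133 genes at 1 TPM or more, 725 (7.15%) hosted a member, and the host counts of the gene lists stand beside that share. The 7.15% is not matched for abundance, and in an abundant gene a small part of the TPM is enough to reach the threshold. Of 16 early cytokine genes, 4 were hosts, with a median share of 2.69%. Cxcl2, a neutrophil chemokine, had 1.94%, 2.08% and 7.01% of its TPM in members, Il1b, the cytokine interleukin-1β, 1.77%, 0.992% and 5.37%, and Ccl2, a monocyte chemokine, 1.87%, 1.27% and 4.89%. All 3 were highest in replicate 3, while their genes' summed log2 CPM was lowest in replicate 3. Cxcl2-203, which keeps 3 whole introns, was called in the test of spread (adjusted p = 0.0112, edgeR), 1 of 5 members of this list tested. Of 20 negative feedback genes, 6 were hosts, with a median share of 3.30%, led by Nfkbie, an inhibitor of NF-κB, with 9.37%, 4.67% and 19.7%. Tnfaip3, the gene of the ubiquitin-editing enzyme A20, had 3.29%, 1.88% and 8.48%, and Tnip1, its binding partner, 1.84%, 5.86% and 3.15%. Among the 8 members of this list, 2 of 7 tested were called, Tnfaip3-205 and Nfkbia-202, beside 7.16% of all members tested and 1.37% of all transcripts tested.

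The hosts of the immediate early and Toll-like receptor 4 lists had median shares of 15.99% and 11.9%, beside 16.03% over all host genes. The first of these medians rests on only 2 hosts, which lie far apart. Of 23 immediate early genes 2 were hosts, Egr3, a zinc finger transcription factor, with 35.7%, 12.4% and 44.4%, and Klf6, another, with 1.61%, 0.695% and 1.14%. Of 25 genes of the Toll-like receptor 4 pathway 4 were hosts: Cd14, the co-receptor for lipopolysaccharide, with 11.7%, 13.2% and 15.2%, Irak2, a signalling kinase, with 0, 20.5% and 17.2%, and Rela, a subunit of NF-κB, with 3.66%, 24.4% and 5.29%, besides Irak1. Of 28 interferon-stimulated genes 5 were hosts, led by Stat2 with a mean of 12.7%, Oasl2 with 7.90% and Irf7 with 3.75%, and none of their 5 members was called. Egr3-202 and Rela-203 were the called members of the other 2 lists, 1 of 2 and 1 of 3 tested. Of all members tested 7.16% were called, and of all transcripts 1.37%.

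Of 51 lysosomal genes 16 were hosts, with 23 members. Large shares were those of the sulfatase gene Arsa, at 60.9%, 63.0% and 68.9%, and of the cholesterol transporter gene Npc1, at 32.0%, 42.6% and 35.6%. Npc1 had a mean of 9.92% in the second table. Of 21 lysosomal members tested 4 were called: Asah1-203, Ctsb-202, Gpnmb-205 and Tpp1-202, again beside 7.16% of all members. Of 20 macrophage markers 4 were hosts. Cd14 led, Fcgr3, an Fc receptor, had 0.593%, 16.01% and 1.95%, and Msr1, a scavenger receptor, 2.12%, 0.664% and 6.14%. A member of each of the last 2 was called, 2 of 4 tested, beside 7.16% of all members and 1.37% of all transcripts tested. These lists were chosen with earlier results known, and no enrichment was tested.

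Many genes of the splicing machinery are known to be regulated by splicing of their own transcripts. Of 7 CLK and SRPK kinases, which phosphorylate splicing factors, 2 were hosts: Clk3 with 7.25%, 21.9% and 24.8%, and Srpk1 with 23.3%, 9.57% and 7.34%. Of 16 SR proteins 4 were hosts: Srsf11 with 0, 32.9% and 10.4%, Srsf1 with a mean of 12.9%, and Srsf5 with a mean of 2.73%, besides Srrm2. Of 48 hnRNP and spliceosome proteins 9 were hosts, with Snrpa at 39.5%, 5.94% and 34.3%, Hnrnpm at 29.0%, 0 and 27.3%, and Ddx39b at a mean of 9.18%. Of 40 genes of RNA decay and surveillance 2 were hosts, Cnot3 with a mean of 9.98% and Cnot1 with 2.33%. In edgeR none of the 11 members of these 4 lists that were tested was called, and at the 7.16% of all members a list of this size holds few calls or none. Of 23 matched snoRNA host genes 4 were hosts, with Ncl, the gene of nucleolin, at 79.0%, 82.9% and 77.2%, Eif4a1 at a mean of 1.99% and Rack1 at 0.876%. No neutrophil, lymphocyte, dendritic or stromal marker hosted a member.

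Some members differed between the 3 libraries far beyond the usual spread, and the calls were a larger share of the members than of all transcripts. The test asked, for each transcript, whether its expected counts differed between the 3 libraries by more than the trend for its abundance (goodness of fit in edgeR, with p adjusted by Benjamini-Hochberg and called under 0.05). It called 321 of 23388 transcripts, 1.37%, and 47 of the 656 members tested, 7.16%. Of the transcripts at the same TPM threshold, 1.15% of 12553 coding transcripts, 3.79% of 554 nonsense-mediated decay transcripts and 2.99% of 635 processed transcripts were called. Of 731 members tested in the second table, 47 were called, 6.43%, against 1.45% of all transcripts, and 27 members were called in both tables (57.4% of each list). The threshold on a mean can be met through 1 high library, so the rule leans towards variable members. Of the 446 members that reached 0.5 TPM in each library of both tables, 436 were tested and 32 called, 7.34%. In all, 118 members had an expected count of 0 in at least 1 library.

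Few host genes were called when their transcripts were summed. With all transcripts of a gene summed, 1.72% of 12244 genes were called, and 9 of the 725 host genes, 1.24%. The host gene was called for 2 of the 47 called members, Fabp4-202 and Malt1-213. A gene that was not called may still have varied, and members were not tested against their gene's total. Aup1 shows the division: Aup1-204 had expected counts of 22.5, 636 and 462 and Aup1-205 had 423, 22.5 and 671 in replicates 1, 2 and 3. The pair swapped between replicates 1 and 2, and both were called. Rps16-202, which keeps the 89-base intron printed above, had 1028, 110 and 1320 counts, low in replicate 2, and was called in the first table (adjusted p = 0.000144, edgeR) but not in the second (adjusted p = 0.875).

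The 10 members with the smallest adjusted p were of 2 kinds. In 7, a transcript with under 35% of its bases outside coding exons stood far above or below in 1 library. Ftl1-206, from the gene of the ferritin light chain, which has many copies, had expected counts of 73.5, 48430 and 467, an adjusted p of 6.2e-75 in edgeR. Its TPM in replicate 2 was 2532 in the first table and 118 in the second, so the size of the peak depends on the quantification. Fcgr3-203 had 101, 2555 and 405 counts and Rps23-202, from a ribosomal protein gene, 65.8, 1356 and 318. Both were highest in replicate 2, and both were also called in the second table.

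Asah1-203, from the gene of acid ceramidase, had 86.1, 767 and 31.8 counts, and Anxa5-202, from the gene of the phospholipid-binding protein annexin A5, 360, 2590 and 783. Pim1-204, from the gene of a kinase induced by cytokines, had 1511, 4521 and 875 counts. These 3 were again highest in replicate 2, but Asah1-203 was not called in the second table. Ctsb-202 had 32693, 18352 and 2658 counts, lowest in replicate 3, and was not called in the second table (adjusted p = 0.99, edgeR). In the other 3 of the 10, Fabp4-202, Lilr4b-206 and Lilrb4a-214, over 75% of the bases lay outside coding exons. Fabp4-202, from the gene of a fatty acid binding protein, keeps 3 whole introns and had 318, 216 and 3186 counts. Lilr4b-206 had 1644, 390 and 4679 counts and Lilrb4a-214 had 134, 14.7 and 960. All 3 were highest in replicate 3 and lowest in replicate 2, and all 3 were called in both tables. In the first table the mean TPM of Lilrb4a-214 was 0.385 without replicate 3, and that of Asah1-203 was 0.48 without replicate 2. Both values are under the threshold of 0.5 TPM, so each of these 2 transcripts is a member only through its highest library.

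The direction of the variation followed the intron content. Members were split, with boundaries chosen after the values were seen, into 473 mostly exonic ones with under 20% of bases outside coding exons, 257 intermediate ones, and 126 mostly intronic ones with 50% or more. Of the 113 mostly intronic members tested, 81 were highest in replicate 3 and 75 lowest in replicate 2 on log2 CPM. On log2(TPM + 0.5) as deposited, 59 were highest in replicate 3 in the first table and 39 in the second, and with TPM scaled to coding genes 82 and 83 were. Their median log2 CPM lay 0.54 above the mean of the libraries in replicate 3, and the medians were -0.37 in replicate 2 and -0.11 in replicate 1. Of these 113, 18 were called (15.9%), and all 18 were highest in replicate 3 and 16 lowest in replicate 2. Among 344 mostly exonic members tested, 174 were highest in replicate 2 and 86 in replicate 3, with median deviations of -0.09, 0.16 and -0.06 in replicates 1, 2 and 3. Of these 344, 23 were called (6.69%), 16 of them highest in replicate 2. Of the 199 intermediate members tested 72 were highest in replicate 3 and 6 were called. Over all 23388 transcripts tested, 32.4% were highest in replicate 3 and 38.3% in replicate 2.

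**Figure D4:**
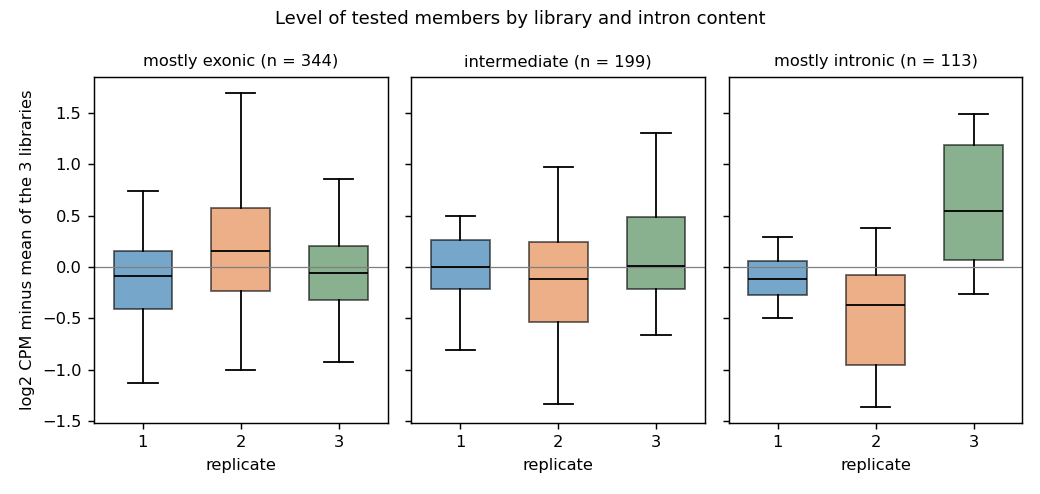
Deviation of log2 CPM from the mean of the 3 libraries (y axis) by replicate (x axis) for mostly exonic, intermediate and mostly intronic members that were tested; boxes show quartiles with the median as a line, and whiskers the 5th to 95th percentile. Mostly intronic members have a median of 0.54 in replicate 3 and -0.37 in replicate 2.

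The 18 called mostly intronic members came from 13 host genes, and 6 of them were chosen as examples after their values were seen. Gpnmb-205, from the gene of a lysosomal membrane glycoprotein, had 934, 385 and 3114 expected counts. Ifrd1-208, from a transcriptional regulator gene, had 1105, 450 and 3775 counts, and Vim-205 had 331, 197 and 1925. Msr1-204, from the scavenger receptor gene, had 131, 59.2 and 811 counts. These 4, whose donor junctions are printed above, had the same order of libraries, with replicate 2 lowest and replicate 3 highest. Tnip3-206, from the gene of an inhibitor of NF-κB signalling, is 94.7% intronic by this measure and had 267, 102 and 1354 counts. Malt1-213, from the gene of a signalling protease of NF-κB activation, had 247, 110 and 1158 counts, and its whole gene was called too (adjusted p = 0.00237, edgeR). The number of calls here depended on the fit: without a filter on low counts 3 of these members were called, with a common dispersion 10, on the second quantification 11, and without replicate 3 only 1.

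In Vim, the order of the libraries was not the same in 2 members. In TPM of the first table as deposited, Vim-203, which holds 52 intron bases, was lowest in replicate 1 and highest in replicate 2. Vim-205, which holds 1847 bases of intron 2, was lowest in replicate 2 and highest in replicate 3. Coding genes took 33.2%, 37.0% and 24.1% of that TPM in replicates 1, 2 and 3. The highest library of Vim-203 therefore depends on whether TPM is scaled to coding genes. Vim-205 was called (adjusted p = 0.00143, edgeR) and Vim-203 was not (adjusted p = 0.792), and the difference between them was not tested.

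**Figure D5:**
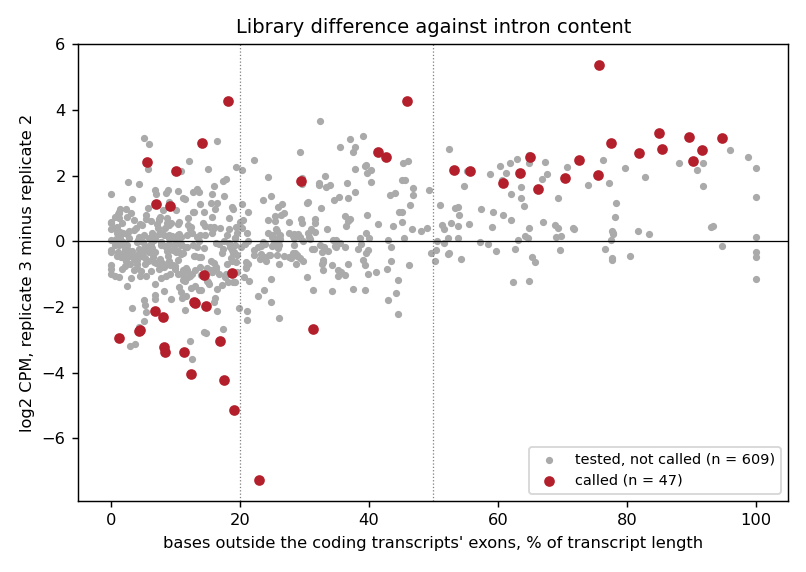
Log2 CPM in replicate 3 minus replicate 2 (y axis) against the percent of bases outside coding exons (x axis) for the 656 members tested, with the 47 called ones in red and dotted lines at 20% and 50%. All 18 called members at or above 50% lie above 0, and called members below 20% lie on both sides.

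The host genes of the mostly intronic members showed a far smaller displacement in their totals, in the same order of libraries. The median deviations of the 116 host genes were -0.02, -0.04 and 0.05 log2 CPM in replicates 1, 2 and 3. Of these 116 genes, 53 were highest in replicate 3. Among transcripts, 32.4% of all tested and 25.8% of coding ones at the TPM threshold were, but these are not shares of gene totals. The totals also include the counts of the mostly intronic members themselves, so part of the displacement is built in. The order of the libraries was not particular to transcripts above the threshold. Of 801 mostly intronic transcripts of the whole class that were tested, members included, 648 were highest in replicate 3, and the 29 called, of which 18 were the members above, were all highest there. As a share of the TPM of coding genes, the mostly intronic members took 0.145%, 0.123% and 0.236% in the first table and 0.181%, 0.151% and 0.300% in the second, whereas the mostly exonic ones took 1.86%, 2.13% and 1.60% in the first table.

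Several nuclear long noncoding RNAs had the same order of libraries. Malat1, a long noncoding RNA of nuclear speckles, had 10.62, 9.89 and 12.81 log2 CPM in replicates 1, 2 and 3, and Neat1, the scaffold of paraspeckles, had 8.04, 6.86 and 9.51. Kcnq1ot1, a chromatin-bound noncoding RNA, had 2.88, 0.77 and 3.74 log2 CPM. All 3 genes were called (adjusted p at most 9.8e-08, edgeR on gene sums), and 7 of the 8 nuclear long noncoding RNAs tested were highest in replicate 3. Tug1, at 7.03, 6.79 and 6.96 log2 CPM, was the exception, and neither it nor Pvt1, at -1.04, -0.84 and -0.71, was called. None of the 10 genes of this list hosts a member. The part of these RNAs, and of whatever sets their level, in the order of the mostly intronic members was not tested.

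All members together took 2.50%, 3.46% and 2.33% of the TPM of coding genes in replicates 1, 2 and 3. Replicate 2 was the highest, and without Ftl1-206 its value was 2.78%, beside 2.50% and 2.32%. In the second table the values were 2.94%, 3.30% and 2.60%, and in expected counts they were 1.08%, 1.27% and 1.12%. The order of replicates 1 and 3 thus differed between TPM and counts. Without Ftl1-206 the counts gave 1.08%, 1.13% and 1.11%, so replicate 2 was only slightly above replicate 3. Over the whole class, replicate 3 was highest in counts, at 1.498%, 1.62% and 1.83% in replicates 1, 2 and 3. In TPM of the whole class replicate 2 stayed highest, at 3.06%, 3.95% and 3.21% in the first table. The second table gave 3.66%, 3.89% and 3.82% for the whole class. The 10 most abundant members held 37.8%, 23.3% and 23.8% of the members' TPM in the first table.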

How the data were processed

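Ribosomal RNA-depleted RNA of the cytosolic fraction in 3 libraries of 1 group was analysed from the authors' tables. The authors deposited expected counts, which are estimated read numbers, and TPM per transcript on mm10 with GENCODE M21, in a first table derived from a transcriptome alignment and a second derived from the reads, per the deposited notes. The names of the quantification tools were not given in the sources used here, nor was the use of strand. Per the file headers, TPM is scaled by effective length, so it weighs short transcripts more than counts do. All 141862 transcripts matched GENCODE M21, whose models and transcript sequences gave classes, introns and printed bases, and 95 transcripts absent from the second table were not used.

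The deposited expected counts were rounded before the test. Spread was tested in edgeR 4.0.16 (R 4.3.3) with filterByExpr, TMM, an intercept-only fit with trended dispersion, a goodness-of-fit test and Benjamini-Hochberg adjustment at 0.05 over all transcripts tested. The steps were tested on simulated data, drawn with the fitted trended dispersion. The simulation had no uncertainty in the division of reads among transcripts of a gene, so it is no check of that. DESeq2 1.42.0 size factors were an alternative. CPM in sums is counts over the library total, and log2 CPM is edgeR's with TMM.

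Named were the 15 host genes with the largest shares, the 10 most abundant members, the 10 with the smallest adjusted p, 3 transcripts on each side of the threshold, up to 3 host genes of each list and the 5 hosts with the most members, of which the fifth is tied. Members outside this rule (such as Gpnmb-205, Ifrd1-208, Vim-205, Msr1-204, Tnip3-206, Malt1-213, Aup1-204, Aup1-205, Taf1d-203) were named after their values were seen. The members and lists were chosen with earlier results of these data known. Expected counts limit the precision: the median member had 89.7, 110 and 161 of them in replicates 1, 2 and 3. Some results that the naming rule covers are not reported here.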

Additional observations from a re-analysis of the deposited data

How the results depend on the processing

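The number of members followed the threshold. It was 516 at 1 TPM, 1482 at 0.25 TPM, 446 when each library of both tables had to reach 0.5 TPM, 1632 from the first table alone and 1570 with TPM rescaled without small RNAs, and 757 to 938 when a replicate was left out. The median share of host genes was 4.92% in expected counts and 14.3% to 16.9% when a replicate was left out.

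The count of 47 called members was 47 to 55 under 6 other settings of the test and 16 to 31 when a replicate was left out. The 16 were without replicate 2, the 17 without replicate 3 and the 31 without replicate 1. Scaling counts by the uncertainty of their assignment, added after the data were seen, gave 55. For mostly intronic members, the 18 became 11 in the second table, 3 with no filter, 10 with a common dispersion, 31 with scaled counts and 1 to 11 when a replicate was left out (1 without replicate 3, 7 without replicate 2, 11 without replicate 1). For mostly exonic members, the 23 became 37 with no filter, 12 with scaled counts and 5 to 14 when a replicate was left out. Except for the second table, the share of all transcripts called under these settings is not given here. Whether the members stayed above that share can therefore not be read from these counts. The cause was not tested.

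Of the members tested, 239 were highest in replicate 3 on log2 CPM, but 140 and 70 on log2(TPM + 0.5) of the first and second table. Of the mostly intronic ones, 81 were highest there, and 39 on the second table's TPM. Scaled to coding genes, both tables gave 252 for all members. With pairs of libraries, replicate 3 was above the other one in 335 to 383 members. With the boundary at 40% or 60% in place of 50%, 67.6% of 148 and 74.7% of 83 members were highest in replicate 3. Of 34 second-table values for single named transcripts and genes, 13 moved beyond the spread of the replicates. Means with a replicate left out cannot move beyond that spread, so they are no check of it. A wide spread also hides large changes. Ftl1-206 counted as unmoved, with a mean of 849 TPM in the first table and 41.8 in the second. No paired analysis was possible because all libraries form 1 group. Depth limits the members with few counts: 118 had 0 in at least 1 library.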
